A study of Mus musculus with 96 samples.

Results

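The proteasome genes described here were the 48 genes whose array symbol starts with Psma, Psmb, Psmc, Psmd, Psme, Psmf or Psmg. They were 48 of the 17658 genes named by a probe, carried by 76 of the 46116 probes, and where a gene had several probes, as 22 did, the brightest over all 96 arrays stood for it in every comparison. Of the 48 genes, 46 encode proteasome subunits, activators or assembly factors, and Psmc3ip and Psme3ip1 share the prefix only. A gene was tested where its probe was detected, at a detection p under 0.01, on at least 12 arrays of the comparison, which kept 38 genes in fat, 39 in liver and 40 over both tissues. The 8 genes tested in no comparison were Psma5, Psma6, Psma8, Psmb11 (the thymus-specific catalytic subunit), Psmc3ip, Psmc6, Psmd9 and Psmg3, whose probes were not well above background on enough arrays.

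The proteasome is the main machine that degrades ubiquitin-tagged proteins in the cell. Its barrel-shaped 20S core is built from alpha subunits (Psma genes), which form the outer rings and the gate, and beta subunits (Psmb genes), which form the inner rings and hold the cutting sites. The 19S cap recognises ubiquitin chains and unfolds the substrate with its ring of ATPases (Psmc genes), assisted by non-ATPase subunits (Psmd genes), while Psme genes encode alternative caps and Psmg genes encode chaperones that help build the core. In cells exposed to interferon and in immune cells, the catalytic subunits Psmb5, Psmb6 and Psmb7 are replaced in new particles by Psmb8, Psmb9 and Psmb10, giving the immunoproteasome, whose peptides are well suited to presentation on MHC class I.

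Gonadal fat and liver had been taken from 48 mice of an F2 intercross between the lines M16i and MB2, all 15 weeks old, and total RNA of each was run on an Illumina bead array, so that each mouse gave 1 fat and 1 liver array. The study set out to map expression quantitative trait loci. Mice belonged to haplotype classes 1 to 4, and each tissue had 12 arrays per class and 24 per sex, scanned on 4 days of 12 arrays. The labels do not say which parental segments a class carries, no mouse is labelled as treated, and no group serves as an untreated control. Between 6582 and 10002 probes were detected on a fat array and between 5519 and 9060 on a liver array. The labelled tissues carried their markers: 7 of 7 adipocyte genes were higher in fat (Adipoq by 8.21 on the log2 scale) and 7 of 7 hepatocyte genes were higher in liver (Apoa1 differed by -8.42 for fat minus liver). The female-specific transcript Xist separated the labelled sexes without overlap in both tissues.

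The promoters of the 3 immunoproteasome genes are shown because these genes moved together across mice, and that of Psmb5 because it did not move with them. Each is the 250 bases before the RefSeq start of transcription on the gene's own strand (GRCm38.p6), and capitals, in Psmb5 alone, mark a match to TGACNNNGC (the core bound by the proteasome regulators Nfe2l1 and Nfe2l2). Psmb8 and Psmb9 lie close together in the MHC region on opposite strands, at chr17:34197945-34198194 (plus) and chr17:34187331-34187580 (minus). Psmb10 is at chr8:105938393-105938642 (minus) and Psmb5 at chr14:54617996-54618245 (minus).
Psmb8: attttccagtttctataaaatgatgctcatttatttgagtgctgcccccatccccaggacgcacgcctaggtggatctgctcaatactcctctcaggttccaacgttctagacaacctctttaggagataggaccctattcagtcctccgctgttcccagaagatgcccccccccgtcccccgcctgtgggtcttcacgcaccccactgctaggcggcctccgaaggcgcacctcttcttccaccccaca
Psmb9: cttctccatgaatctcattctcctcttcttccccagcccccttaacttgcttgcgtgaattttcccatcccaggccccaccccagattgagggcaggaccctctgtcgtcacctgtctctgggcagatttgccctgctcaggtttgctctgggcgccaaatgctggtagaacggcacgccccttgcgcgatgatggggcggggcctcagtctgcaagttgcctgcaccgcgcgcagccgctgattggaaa
Psmb10: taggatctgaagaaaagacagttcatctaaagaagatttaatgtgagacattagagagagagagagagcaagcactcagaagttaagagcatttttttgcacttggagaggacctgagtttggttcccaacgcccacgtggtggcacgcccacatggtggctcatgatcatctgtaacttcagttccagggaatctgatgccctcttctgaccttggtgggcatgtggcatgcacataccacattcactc
Psmb5: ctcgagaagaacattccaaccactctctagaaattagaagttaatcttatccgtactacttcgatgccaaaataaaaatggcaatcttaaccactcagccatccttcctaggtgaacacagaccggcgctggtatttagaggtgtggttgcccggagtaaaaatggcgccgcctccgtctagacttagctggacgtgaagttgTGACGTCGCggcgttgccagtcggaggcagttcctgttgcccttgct
Promoter windows were found for 40 of the 48 genes, 44 windows in all, and were searched on both strands with matches allowed to overlap. TGACNNNGC occurred in 11.4% of these windows, among them Psmb5 and Psmb6, and in 10.2% of all 32851 windows of this length. The core of the interferon-stimulated response element occurred in 6.82% of the members' windows (Psmb3, Psmd4 and Psmd9) and in 2.98% of all, and was in none of the 4 sequences shown. A match is a run of letters in this window and not a mapped binding site.

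Between the tissues, the immunoproteasome genes and most constitutive beta genes differed in opposite directions. All 3 immunoproteasome catalytic genes were higher in fat, whereas 6 of 7 constitutive beta genes were higher in liver. With scanning day as a random block, 1 of these 3 and 4 of these 6 still passed. Over all members, 33 of the 40 tested passed the threshold (limma, Benjamini-Hochberg adjusted p under 0.05 over all probes), 13 higher in fat and 20 higher in liver. Across the array 86.7% of tested probes were called, 47.9% higher in fat and 38.8% higher in liver, so the members' 82.5% is near the background. Of the called probes 55.2% were higher in fat, and 41.3% in the authors' deposited matrix, where 14 members were higher in fat and 21 lower. The median fat minus liver difference was -0.070 on the log2 scale over the members and 0.040 over all probes. In these bulk samples, fewer cells of a type and less RNA per cell cannot be told apart. A level below is the log2 signal of 1 probe, and levels of different probes are not compared.

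Psmb9 had a log2 signal of 8.09 to 10.22 in fat (median 9.18, n = 48) and of 7.57 to 10.10 in liver (median 8.66, n = 48). The ranges overlapped, but 46 of the 48 mice were higher in fat, by 0.53 ± 0.09 (SE, adjusted p = 1.08e-07 by limma), a fold of 1.44. Psmb8 ranged from 8.66 to 11.44 in fat (median 10.16) and from 9.12 to 11.31 in liver (median 9.78). It was higher in fat in 36 of 48 mice, by 0.25 ± 0.09 (SE, adjusted p = 0.00983). Psmb10 ranged from 7.76 to 9.23 in fat (median 8.60) and from 7.51 to 9.42 in liver (median 8.44), and was higher in fat in 35 mice, by 0.15 ± 0.05 (SE, adjusted p = 0.00913). The Psmb8 difference was 0.19 (adjusted p = 0.0759 by limma) without scanning day 1 and 0.12 (0.243) without day 4, and that of Psmb10 was 0.12 (0.0516) without day 3 and 0.096 (0.102) without day 6. The other tested probes of Psmb8 gave 0.19 (adjusted p = 0.054) and 0.0092 (0.882) by limma. Each scanning day held 1 tissue only. With day as a random block, an alternative added after seeing the data, 27 members passed and 73.6% of all probes did. Psmb9 still passed there (adjusted p = 0.00655), but Psmb8 and Psmb10 did not (adjusted p = 0.187 and 0.204 by limma). The other calls lost were Psmb3 (0.177), Psmb4 (0.114), Psma3 (0.25) and Psmd7 (0.0891).

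Their constitutive partners were lower in fat. Psmb5, the chymotrypsin-like subunit, ranged from 6.52 to 7.20 in fat (median 6.85) and from 6.83 to 7.68 in liver (median 7.22), a difference of -0.35 ± 0.04 (SE, adjusted p = 3.06e-13) for fat minus liver, with 8 mice higher in fat. Psmb7, the trypsin-like subunit, differed by -0.26 ± 0.04 and Psmb6, the caspase-like subunit, by -0.13 ± 0.03 (SE, both past the threshold). The other tested probes of Psmb7 gave -0.057 (adjusted p = 0.21) and -0.44 (3e-11) by limma, so its size and call depend on the probe. The log2 difference within an array between an immunoproteasome gene and the subunit it replaces was higher in fat than in liver, by 0.60 ± 0.07 for Psmb8 over Psmb5, by 0.65 ± 0.08 for Psmb9 over Psmb6 and by 0.41 ± 0.07 for Psmb10 over Psmb7 (SE, 48 mice). It was higher in fat in 44, 45 and 39 of the 48 mice (two-sided permutation test by sign flips, adjusted p = 2.25e-05 for each over a family of 9 tests, from the smallest p that 100000 resamples can give, 1e-05). That test had no term for scanning day and took the mice as independent. Each day held 1 tissue only, so the p-value leaves out differences between days. Psmb1 was lower in fat by the most among the non-catalytic beta genes (-0.52 ± 0.06), and Psmb2 alone among the 7 was higher in fat (0.45 ± 0.04, 45 of 48 mice).

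**Figure D1:**
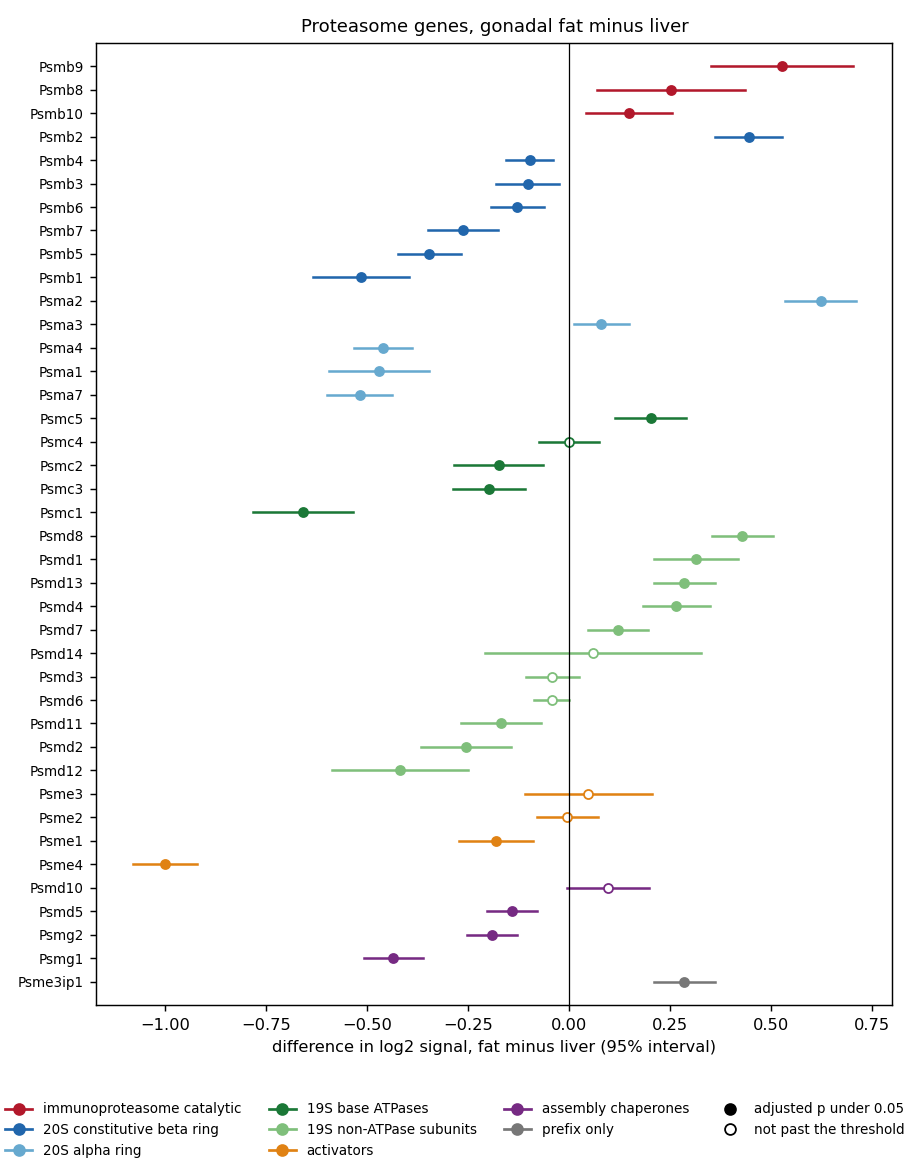
Fat minus liver difference in log2 signal (x axis, point with 95% interval, 96 arrays) for each of the 40 tested members, grouped and coloured by role; filled points passed adjusted p under 0.05. The 3 immunoproteasome genes lie to the right of 0 and 6 of the 7 constitutive beta genes to the left, while Psme4 has the lowest value, -1.0.

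The alpha ring split. Psma2 ranged from 11.37 to 12.52 in fat (median 11.91) and from 10.94 to 11.71 in liver (median 11.24), higher in fat in 46 of 48 mice by 0.62 ± 0.04 (SE, adjusted p = 4.17e-24). Psma4 was lower in fat in all 48 mice (-0.46 ± 0.04), and Psma7 (-0.52 ± 0.04) and Psma1 (-0.47 ± 0.06) were lower as well, while Psma3 was higher by 0.080 ± 0.035, a call lost with day as a random block (adjusted p = 0.25 by limma). The 19S cap was mixed, with 6 of 16 tested subunits higher in fat and 6 lower. Among its ATPases, Psmc1 was lower in fat by 0.66 on the log2 scale (-0.66 ± 0.06, adjusted p = 6.23e-17). Among its non-ATPase subunits, Psmd8 was higher in fat in 47 of 48 mice (0.43 ± 0.04) and Psmd13 in 41 (0.29 ± 0.04). Psmc5, Psmd13 and Psmd7 each had another tested probe that was called in the opposite direction (-0.25, -0.35 and -0.44), so the tissue direction of these 3 genes depends on the probe.

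Psme4, which encodes the PA200 activator, had the largest fitted tissue difference among the members. Its signal was 6.45 to 7.31 in fat (median 6.76) and 7.26 to 8.25 in liver (median 7.75). The ranges met only at their edges, and no mouse was higher in fat (-1.0 ± 0.04, SE, a fold of 2, adjusted p = 5.25e-42 by limma). Of the interferon-inducible PA28 cap, Psme1 was lower in fat (-0.18 ± 0.05, adjusted p = 0.000253), unlike the immunoproteasome genes, and Psme2 gave -0.0037 ± 0.0389 (adjusted p = 0.929). Psme2 turned to 0.056 (adjusted p = 0.0192) in the authors' deposited matrix. The core chaperone Psmg1 was lower in fat (-0.43 ± 0.04), as was Psmg2 (-0.19 ± 0.03). The prefix-only gene Psme3ip1 was higher in fat (0.29 ± 0.04).

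Leukocyte markers also differed between the tissues. All 4 tested of 6 listed were higher in fat (median difference 1.33). Of the 6 listed, Ptprc was detected on no fat array and Cd52 and Cd48 on no liver array. Class II antigen-presenting cell markers were higher in fat in 3 of 3 tested (median 2.68), and macrophage markers were higher in 3 and lower in 2 of 5 tested (Lyz2 3.66, the Kupffer cell gene Clec4f -2.66). Endothelial markers were higher in fat in 4 of 4 tested, and mesothelial and gonadal tract markers were higher in 2 and lower in 2 of 5. T and NK cell markers were higher in fat in 2 of 3 tested and B cell markers in 1 of 1. In liver, 0 of the 7 T and NK cell and 0 of the 4 B cell genes with a probe passed the detection filter. Those tested here therefore entered through fat alone, and no conclusion is drawn from their direction. The part of these cell types in the immunoproteasome difference was not tested.

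Genes around the proteasome differed by tissue as well. Nfe2l1, the transcription factor that raises proteasome genes when proteasome activity falls, was higher in fat by 1.49 ± 0.05, its partner Mafg was lower (-0.57 ± 0.06) and the Nfe2l2 inhibitor Keap1 was lower (-0.093 ± 0.043), which are the 3 tested genes of that list. Of 7 tested genes for other subunits, assembly and associated proteins, 2 were higher in fat (Zfand2a 0.88, Sem1 0.72) and 3 lower, among them Txnl1 (-0.34) and the core assembly factor Pomp (-0.16). Of 8 ubiquitin, E1, shuttle and segregase genes, 4 were higher, with the alternative E1 enzyme Uba6 at 3.11 and Faf1 at 0.71, and 3 were lower, with the shuttle Rad23b at -1.11 and Nploc4 at -0.72. Class I antigen processing genes were higher in 4 of 8 (B2m 0.50, H2-D1 1.46) and lower in 3 (Canx -0.46, Tapbpl -0.24). Interferon response genes did not share the direction of the immunoproteasome: 3 of 10 were higher in fat (Irf8 0.51, Cxcl9 1.38) and 6 lower (Irgm1 -1.05, Igtp -1.57).

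In liver, Psmb10 was the only member that passed as higher in females (Psmb8 and Psmb9 did not pass), and 15 members, 8 of them among the 15 tested 19S subunits, were lower in females. In all, 16 of 39 tested members passed, 41% against 34% of all probes. Across the array 16.7% were called higher in females and 17.4% higher in males, against 1 and 15 of the 39 members. The median female minus male difference was -0.089 over the members and -0.0032 over all probes. The count of 16 was 7 without scanning day 5, when 1712 of 8504 probes were called in place of 2893, and 9 without day 6. Psmb7 and Psme3 were among the calls lost without day 5, and Psmb7 and Psmd13 among those lost without day 6.

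Psmb10 had a log2 signal of 7.86 to 9.40 in female liver (median 8.45, n = 24) and of 7.23 to 8.60 in male liver (median 7.96, n = 24). The groups overlapped, females were higher on 4 of 4 scanning days, and the difference was 0.59 ± 0.09 (SE, adjusted p = 1.47e-06 by limma). Its other tested probe gave 0.57. On each scanning day of either tissue, the females and males belonged to different haplotype classes. A sex difference within a day therefore also compares classes. Psmb9 was 7.29 to 10.15 in female liver (median 8.67) and 7.45 to 9.64 in male liver (median 8.32), a difference of 0.33 ± 0.16 that did not pass (adjusted p = 0.0992). Psmb8 gave 0.16 ± 0.12 (adjusted p = 0.294), although 1 of its other probes, detected on 42 of the 48 arrays, passed at 0.28 (adjusted p = 0.00457 by limma). Set against the subunit it replaces, Psmb10 over Psmb7 was higher in females by 0.74 ± 0.11 (two-sided permutation test, adjusted p = 2.25e-05) and Psmb9 over Psmb6 by 0.42 ± 0.18 (permutation, adjusted p = 0.0264). Psmb8 over Psmb5 gave 0.19, with a 95% interval of -0.076 to 0.45 (permutation, adjusted p = 0.176). The Psmb9 result was 0.31 (adjusted p = 0.243) without scanning day 1 and 0.30 (adjusted p = 0.216) without day 2, and Psmb8 over Psmb5 rose to 0.42 (adjusted p = 0.0136) without day 5, all by the same permutation test.

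Of the 15 tested 19S subunits, 8 were lower in female liver. Psmc4, an ATPase of the base, was 9.58 to 10.25 in females (median 9.76) and 9.70 to 10.43 in males (median 10.21), lower in females on 4 of 4 days by 0.36 on the log2 scale (-0.36 ± 0.06, adjusted p = 1.62e-06). Psmd2, the large scaffold of the base, was 7.13 to 8.22 in females (median 7.87) and 7.51 to 8.54 in males (median 8.23), with a difference of -0.39 ± 0.07 (adjusted p = 7.05e-06) in the same direction on 4 of 4 days. Both pairs of groups overlapped. Psmd8 differed by -0.28 ± 0.05 and Psmd13 by -0.22 ± 0.05, and the ubiquitin receptor Psmd4 by -0.17 ± 0.05. Psmd1, Psmd7 and Psmc5 also passed, at -0.21, -0.17 and -0.20. Psmd8 and Psmc5 were lower in females on 4 of 4 days, and Psmd13, Psmd4, Psmd1 and Psmd7 on 3 of 4. Outside the cap, the nuclear activator Psme3 (-0.22 ± 0.05, but -0.044 with adjusted p = 0.79 by limma when scanning day was left out of the model), Psme4 (-0.24 ± 0.07), the chaperone Psmg2 (-0.11 ± 0.03) and 4 of 12 constitutive core genes, Psma3, Psma7, Psmb3 and Psmb7, were lower in females. Psme1 gave 0.054 ± 0.071 and Psme2 -0.067 ± 0.038, neither past the threshold.

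Immune cell markers were also higher in female liver. All 3 tested leukocyte markers passed (Laptm5 0.60, Coro1a 0.39, Cd53 0.16), and the summed signal of the 6 listed was 753 to 3240 in females (median 977) and 566 to 1260 in males (median 771). Macrophage and Kupffer cell markers were higher in 2 of 4 tested (Clec4f 0.64, Adgre1 0.38), class II markers in 1 of 3 (Cd74 0.55), and 0 of 7 T and NK cell and 0 of 4 B cell genes with a probe could be tested. Endothelial markers were higher in 2 of 3 tested (Pecam1 0.18, Cdh5 0.13), hepatocyte markers in 4 of 7, and Krt18 was lower, 1 of 3 mesothelial and gonadal tract markers. Of 9 interferon response genes, Cxcl9 (1.17) and Gbp3 (0.53) were higher in females, and of 7 class I processing genes Tap2 was higher (0.34) and Pdia3 lower (-0.42). The part of these cell types in the Psmb10 difference was not tested. The segregase Vcp (-0.22), Nploc4 (-0.23), Rad23b (-0.23) and Ubqln1 (-0.21) were lower in female liver, 4 of 8 tested in that list. Pomp (-0.13) and Txnl1 (-0.11) were lower too, 2 of 7 tested, and Keap1 was (-0.13), 1 of 3.

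**Figure D2:**
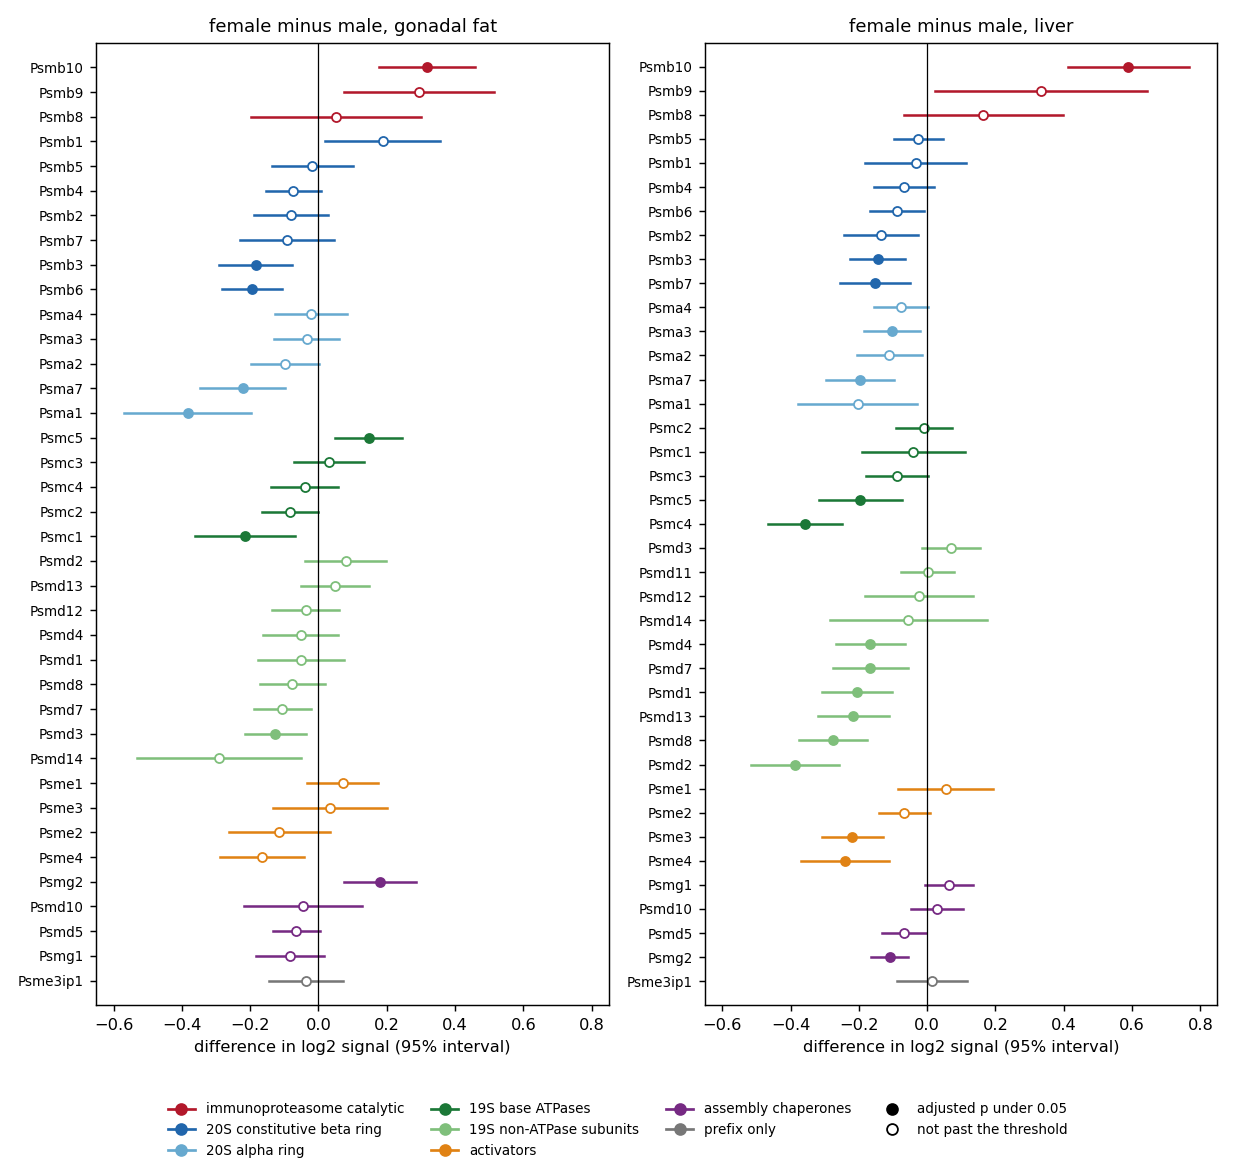
Female minus male difference in log2 signal (x axis, point with 95% interval, 48 arrays per panel) in gonadal fat (left) and liver (right) for each tested member, grouped and coloured by role; filled points passed adjusted p under 0.05. Psmb10 is filled and to the right of 0 in both panels, and the filled 19S points in liver all lie to the left of 0.

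In gonadal fat, Psmb10 was again higher in females. Of 38 tested members, 9 passed, 3 higher and 6 lower in females, or 23.7% against 22.6% of all probes (12.1% higher in females, 10.5% higher in males), which is near the background. Psmb10 was 8.56 to 9.28 in female fat (median 8.92) and 7.99 to 9.20 in male fat (median 8.60). The groups overlapped, and the difference was 0.32 ± 0.07 (SE, adjusted p = 0.000973), in the same direction on 4 of 4 days. Psmb9 gave 0.29 ± 0.11 (adjusted p = 0.0507 by limma) and Psmb8 0.051 ± 0.127 (adjusted p = 0.817 by limma), each higher in females on 2 of 4 days. Psmb10 over Psmb7 was higher in female fat by 0.41 ± 0.10 and Psmb9 over Psmb6 by 0.49 ± 0.13 (permutation, adjusted p = 0.00054 and 0.000675), the latter 0.26 (permutation, adjusted p = 0.132) without scanning day 3. Psmb8 over Psmb5 gave 0.069, with an interval of -0.24 to 0.38.

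The chaperone Psmg2 (0.18 ± 0.05) and, by its brightest probe, the ATPase Psmc5 (0.15 ± 0.05) were the other members higher in female fat. Lower in females were Psma1 (-0.38 ± 0.09), Psma7 (-0.22 ± 0.06), Psmc1 (-0.22 ± 0.08), Psmb6 (-0.19 ± 0.04), Psmb3 (-0.18 ± 0.05) and Psmd3 (-0.13 ± 0.05). Psmb5 gave -0.018, Psmb7 -0.092, Psme1 0.071 and Psme2 -0.11, none past the threshold. Both other probes of Psmb7 did pass as lower in female fat, at -0.19 (adjusted p = 0.00493) and -0.23 (adjusted p = 0.0349) by limma. The count of 9 fell when single scanning days were left out. It was 2 without day 3, when 970 of 10217 probes were called in place of 2314, 5 without day 4 and 3 without day 8. Psma1, Psma7, Psmb3, Psmb6, Psmc1 and Psmc5 were among the calls lost without day 3. These fits also have fewer arrays, and the cause of the lower counts was not tested. No leukocyte, macrophage, T and NK cell or B cell marker passed in fat, of 4, 3, 3 and 1 tested, while H2-Ab1 (0.31) and H2-Eb1 (0.35) of 3 class II markers and Irf1 (0.30) of 9 interferon genes were higher in females. B2m and Pdia3 (0.21 and 0.24) of 7 class I processing genes were higher in females too, Zfand2a was lower (-0.24, 1 of 7), and of 8 ubiquitin-related genes Uba6 (0.94) and Faf2 (0.19) were higher and Ubqln1 (-0.22) and Faf1 (-0.14) lower. The epithelial keratins Krt8 (-0.97) and Krt18 (-0.59) were lower in female fat, 2 of 5 tested mesothelial and gonadal tract markers. Endothelial markers were higher in 2 of 4 (Pecam1 0.38, Emcn 0.18), and of 7 adipocyte markers Lpl was higher (0.20) and Plin1 lower (-0.48). Their part in the sex differences was not tested.

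**Figure D3:**
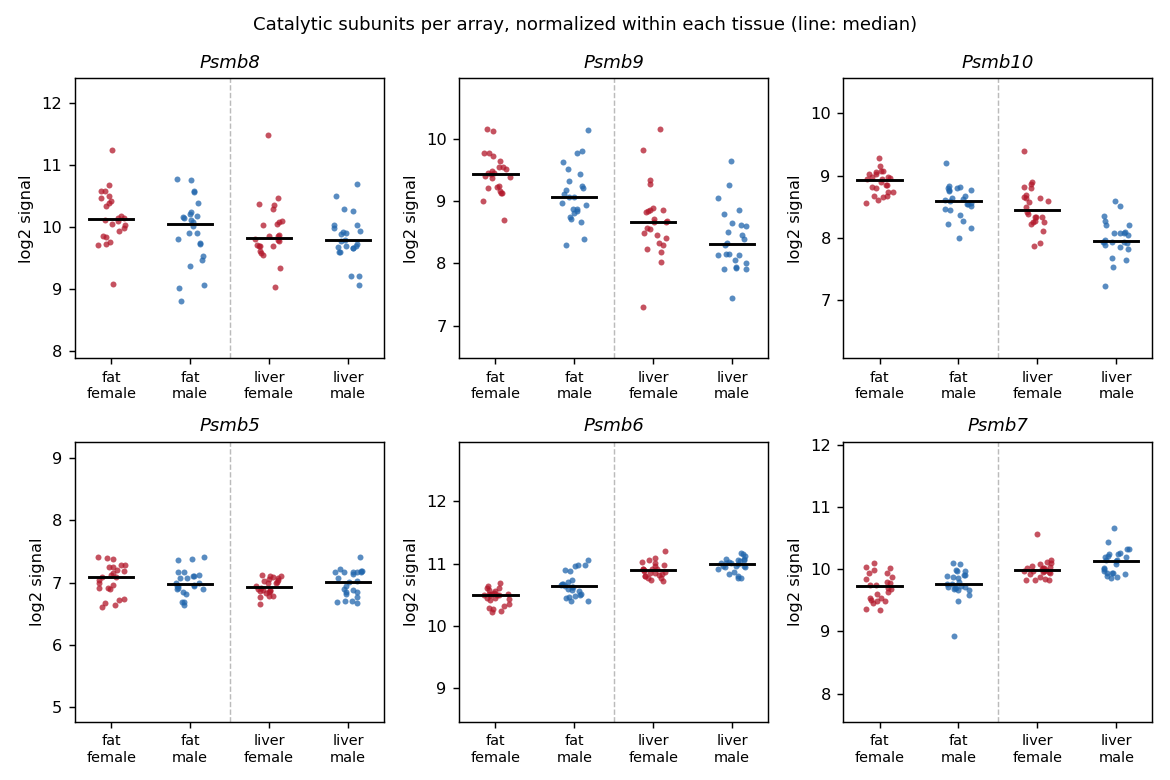
Log2 signal (y axis) of the 3 immunoproteasome genes (top) and the constitutive subunits they replace (bottom) on each of the 96 arrays, by tissue and sex, with the group median as a line; values are normalized within each tissue, so fat and liver are not to be compared here. Psmb10 medians are 8.92 and 8.60 in female and male fat and 8.45 and 7.96 in female and male liver, with overlapping points.

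The sex difference itself differed between fat and liver for 7 of 40 members, 17.5% against 27.7% of all probes. For 6 of them the female minus male difference was larger in fat than in liver (14.5% of all probes), and for Psmd3 it was smaller (13.2%). Of the 6, Psmd2 (interaction 0.43 ± 0.09, adjusted p = 6.25e-05), Psmc5 (0.34 ± 0.08), Psmc4 (0.28 ± 0.07) and Psmd13 (0.24 ± 0.07) belong to the 19S cap. With Psmd3 they make 5 of 16 tested 19S subunits, or 31.2%, which is near the 27.7% of all probes. The other two were Psmg2 (0.29 ± 0.06, adjusted p = 2.34e-05) and Psme3 (0.26 ± 0.09). Psmg2 was called in opposite directions in fat and liver, and so was Psmc5 by its brightest probe. The other Psmc5 probe was negative in both (-0.090 in fat, adjusted p = 0.279, and -0.15 in liver, adjusted p = 0.0274, by limma), with an interaction of 0.058 (adjusted p = 0.608), so the Psmc5 result depends on the probe. The other Psmd13 probe gave an interaction of 0.18 (adjusted p = 0.182 by limma). Psmc4 lost its call without scanning day 5, Psmd13 without day 6 or day 7 and Psmd3 without day 3 (adjusted p between 0.0552 and 0.0949 by limma). Psmb10, higher in females in both, gave an interaction of -0.15 ± 0.11 (adjusted p = 0.335), with an interval of -0.38 to 0.072. By their brightest probes, Psmb8 gave -0.088, Psmb9 0.059, Psmb5 0.0095, Psmb6 -0.14, Psmb7 0.036, Psme1 0.032 and Psme2 -0.018, none past the threshold. The other tested probes of Psmb8 gave -0.33 (detected on 90 arrays, adjusted p = 0.0218 by limma) and -0.14 (0.628), so its call depends on the probe.

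No member differed between the haplotype classes past the threshold. The moderated F-test called 0 of 38 in fat and 0 of 39 in liver, where 0.401% and 0.317% of all probes were called, so that such a share of the members is less than 1 gene. With no adjustment, 7 members in fat and 2 in liver had a p under 0.05, as did 12.9% and 5.35% of all probes. The smallest p in fat was that of Psmb5, whose highest and lowest classes differed by 0.31 (p = 0.004, adjusted p = 0.174 by limma). Its signal was 6.94 to 7.38 in class 4 (median 7.18, n = 12) and 6.61 to 7.41 in class 2 (median 6.86, n = 12), which overlap. In liver it was that of Psmd1 (0.21, p = 0.028, adjusted p = 0.865 by limma). For Psmb8, Psmb9 and Psmb10 the classes spanned at most 0.33 in fat and 0.41 in liver. The class effect differed between the tissues for 0 of 40 members (0.179% of all probes). An unadjusted p under 0.05 was found for 4 members and 8.01% of all probes. Psmc3 came closest (p = 0.00875, adjusted p = 0.411 by limma). The sex by class interaction gave 0 of 38 in fat and 0 of 39 in liver, where 0% of all probes passed in either, with 1 and 5 members whose unadjusted p was under 0.05, against 6.7% and 6.74% of all probes. Closest were Psmd5 in fat (adjusted p = 0.627) and Psmc4 in liver (adjusted p = 0.538), both by limma.

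The 5 members on chromosome 2 were looked at by class individually. Psmc3, a 19S ATPase, was 8.61 to 9.07 in class 4 fat (median 8.93) and 8.15 to 8.86 in class 2 fat (median 8.68), a span of 0.27 between the fitted classes (p = 0.00427, adjusted p = 0.177 by limma), and spanned 0.059 in liver. Psma7 spanned 0.13 in fat and 0.17 in liver, Psmb7 0.15 and 0.091, Psmd5 0.13 and 0.066, and Psmd14, the deubiquitinase of the cap, 0.18 and 0.11. None passed in either tissue. Psmd14 differed by scanning day. In liver its signal was 7.59 to 9.07 on day 1 (median 8.68, n = 12), and the other 3 days reached at most 7.52, so that day 1 did not overlap the rest. The range of its 4 day means was 1.66 after removing sex and class, against a median of 0.20 over 5812 genes, and Psmd12 came next among the members at 0.99. In fat the day means of Psmd14 spanned 0.72.

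**Figure D4:**
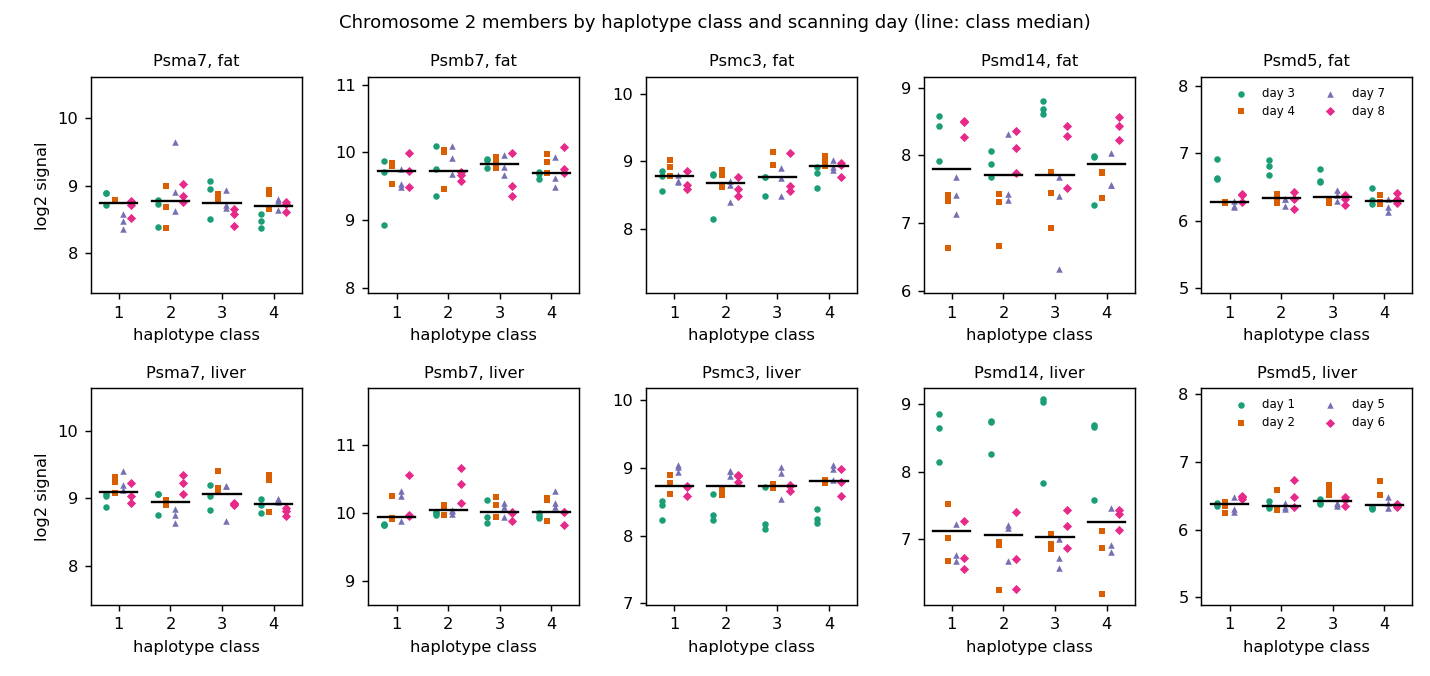
Log2 signal (y axis) of the 5 chromosome 2 members by haplotype class (x axis), 12 arrays per class, in fat (top) and liver (bottom), with symbols for the scanning day and a line at the class median. Class medians lie close together in every panel, and the liver arrays of Psmd14 scanned on day 1 sit between 7.59 and 9.07, above all others.

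Mice differed from each other in immunoproteasome expression, and did so in both tissues at once. After removing sex, class and scanning day, the SD between mice was 0.43 for Psmb8, 0.37 for Psmb9 and 0.23 for Psmb10 in fat, and 0.40, 0.54 and 0.30 in liver, whereas Psmb5, Psmb6 and Psmb7 had 0.19, 0.13 and 0.23 in fat and 0.11, 0.12 and 0.17 in liver. Among the other members Psmd14 and Psma1 had the largest SD, 0.41 and 0.31 in fat and 0.40 and 0.30 in liver. A large spread was therefore not particular to the immunoproteasome genes. The median over all genes was 0.19 in fat and 0.15 in liver. This comparison of the 2 tissues was added after seeing the data, for the 8 genes always named. The fat and liver residuals of a mouse correlated at r = 0.60 for Psmb9 (Spearman's rho 0.61), 0.57 for Psmb8 (0.54) and 0.47 for Psmb10 (0.40), over 48 mice. The permutation p was 2e-05, 6e-05 and 0.00085, and 0.00016, 0.00024 and 0.00227 after adjustment over the 8 genes. For Spearman's rho the permutation p was 1e-05, the smallest the resamples can give, 0.00016 and 0.00501 (adjusted 8e-05, 0.00064 and 0.0134).

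Without the 2 mice farthest from the median in fat, r was 0.55, 0.52 and 0.41 for Psmb9, Psmb8 and Psmb10. Within single scanning days, 12 mice each, r was 0.30 to 0.91 for Psmb9, 0.28 to 0.88 for Psmb8 and 0.18 to 0.73 for Psmb10, above 0 on each of the 8 days. The fat days and the liver days divide the same mice, so these 8 values are not independent repeats. Within females and within males r was 0.63 and 0.62 for Psmb9, 0.56 and 0.63 for Psmb8, and 0.38 and 0.57 for Psmb10. One female of class 2, mouse 32004, had the highest signal of Psmb8 in fat (11.25) and in liver (11.47) and of Psmb9 in both (10.16 and 10.15), and one male of class 2, mouse 30702, was lowest or next to lowest for all 3 genes in both. Psme1 correlated at 0.33 (rho 0.37, permutation p = 0.0208 and 0.01, adjusted 0.0417 and 0.02, 0.31 without the 2 farthest mice), and between -0.46 and 0.60 within days. Without mouse 32004 its correlation was 0.25 and did not pass (permutation, adjusted p = 0.188). With all mice it was 0.288 in the authors' deposited matrix and did not pass there either (permutation, adjusted p = 0.0944).

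The constitutive partners gave r of -0.029 (Psmb5), 0.091 (Psmb6) and -0.046 (Psmb7), and Psme2 gave -0.15 (permutation p = 0.848, 0.537, 0.754 and 0.312, with rho of 0.040, 0.095, -0.072 and -0.25 at permutation p of 0.785, 0.522, 0.623 and 0.0835). Without the 2 farthest mice r was -0.073, -0.014, -0.115 and -0.21. As a description, the median r was 0.041 over the 5130 genes tested in both tissues and 0.091 over the other 35 members, which ran from -0.25 (Psmd1) to 0.33 (Psme1). The values of Psmb9, Psmb8 and Psmb10 were at or above those of 99.5%, 99.3% and 98.5% of the genes.

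**Figure D5:**
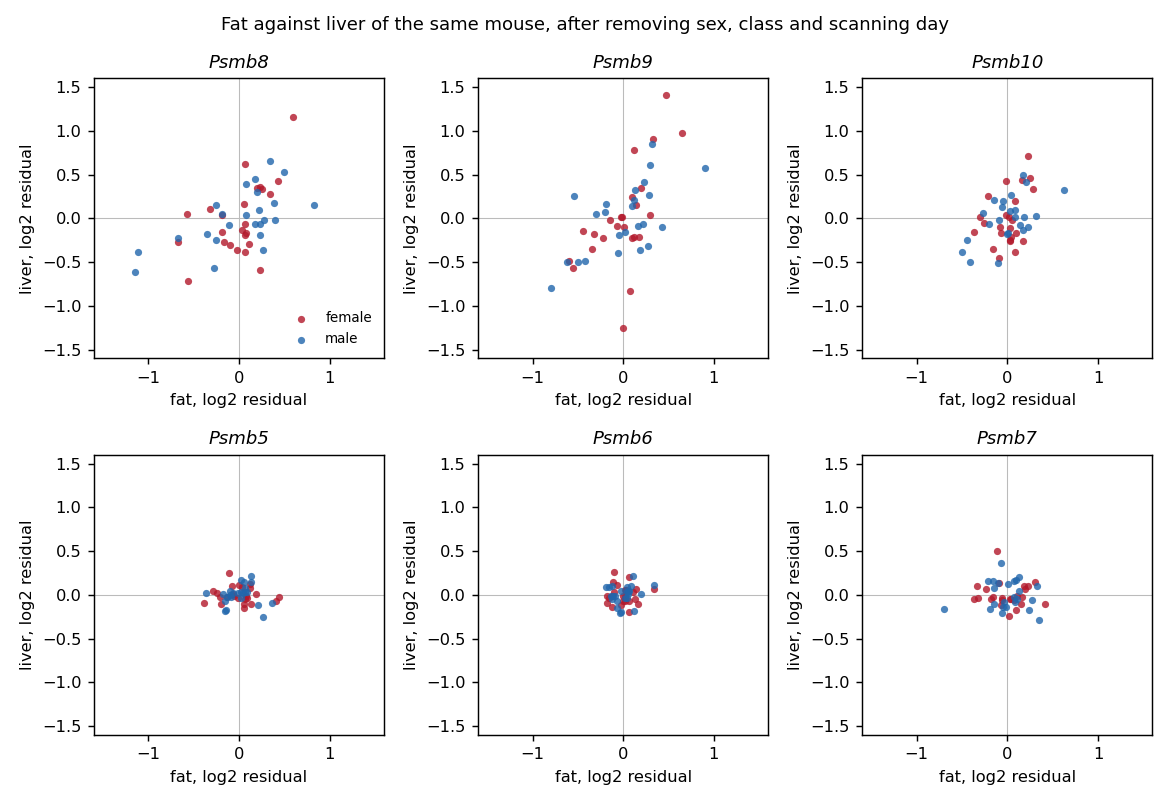
Residual log2 signal in fat (x axis) against liver (y axis) of the same mouse, after removing sex, class and scanning day, for the 3 immunoproteasome genes (top) and the subunits they replace (bottom); each point is 1 of 48 mice. The points rise together for Psmb9 (r = 0.60), Psmb8 (0.57) and Psmb10 (0.47), and form round clouds for Psmb5 (-0.029), Psmb6 (0.091) and Psmb7 (-0.046).

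Within a tissue, the 3 immunoproteasome genes also moved together from mouse to mouse. Their median pairwise r was 0.69 in fat and 0.72 in liver, the constitutive core genes had 0.28 and 0.24, the 19S subunits 0.15 and 0.096, and all genes 0.0021 and 0.0028 (48 arrays per tissue, which share 1 normalization). Psmb8 and Psme1 correlated at 0.78 in fat and 0.74 in liver (rho 0.74 and 0.68, permutation p = 1e-05 for each, adjusted 2e-05 over 16 pairs, 0.77 and 0.70 without the 2 farthest arrays, at least 0.65 and 0.55 on single days). Psmb9 ran against the subunit it replaces, Psmb6, at -0.37 in liver (rho -0.41, permutation p = 0.00959 and 0.00437, adjusted 0.0139 for r, -0.34 without the 2 farthest arrays, -0.58 to -0.053 on single days). In fat that pair gave -0.28 (permutation, adjusted p = 0.078). The other partner pairs did not pass: Psmb8 with Psmb5 gave -0.26 in fat and -0.24 in liver (permutation, adjusted p = 0.0843 and 0.115), and Psmb10 with Psmb7 gave -0.090 and -0.15 (permutation, adjusted p = 0.543 and 0.33). The 2 neighbours on chromosome 17, Psmb8 and Psmb9, correlated at 0.73 in fat and 0.74 in liver, and Psmb10 on chromosome 8 correlated with Psmb9 at 0.69 and 0.72 (permutation p = 1e-05 for each, adjusted 2e-05, rho 0.67, 0.64, 0.60 and 0.64). Without the 2 farthest arrays these were 0.75, 0.65, 0.56 and 0.64, and on single days Psmb8 and Psmb9 ranged from 0.073 to 0.93 in fat and from 0.59 to 0.86 in liver. Psmb8 and Psmb10 had the lowest r of these 3 pairs in fat, at 0.52 (rho 0.46, permutation p = 0.00015 and 0.00104, adjusted 0.00024 for r, 0.55 without the 2 farthest arrays), with -0.18 to 0.80 on single days. In liver they correlated at 0.70 (rho 0.61, permutation p = 1e-05, adjusted 2e-05, 0.61 without the 2 farthest arrays, at least 0.63 on single days).

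The mean of the interferon response genes (9 tested) correlated with Psmb9 at 0.86 in fat and 0.81 in liver, with Psmb8 at 0.66 and 0.80 and with Psmb10 at 0.79 and 0.68 (permutation p = 1e-05 for each r, adjusted 1.2e-05 over 18 relations with gene lists; rho 0.85, 0.78, 0.62, 0.70, 0.73 and 0.54). The correlations were 0.82, 0.80, 0.74, 0.72, 0.72 and 0.57 without the 2 farthest arrays, and at least 0.74 on every single day for Psmb9, but as low as 0.11 on 1 fat day for Psmb8. With the leukocyte markers (4 tested in fat, 3 in liver) they were 0.60 and 0.69 for Psmb9, 0.47 and 0.75 for Psmb8 and 0.64 and 0.66 for Psmb10 (adjusted permutation p between 1.2e-05 and 0.0011, and between 0.071 and 0.89 on single days). The class I processing genes (7 tested) gave 0.46 and 0.66 for Psmb9, 0.66 and 0.65 for Psmb8 and 0.39 and 0.64 for Psmb10 (adjusted permutation p between 1.2e-05 and 0.00866, and between -0.067 and 0.89 on single days). The part of leukocyte number in the difference between mice was not tested.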

How the data were processed

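The bead-level summaries were deposited as one linear intensity per probe and array, headed as non-normalized, per the file headers. The p-value columns that the authors deposited beside them rise with the signal, so they hold 1 minus the detection p-value and were turned back. The deposited matrix is on a log2 scale after the authors' own normalization; lumi is named in the submitters' processing notes, with neither version nor settings stated there. Its array medians ran from 7.21 to 7.24 for fat and lay at 7.55 for liver, so it was used as an alternative alone.

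Signals were processed with limma 3.58.1 in R 4.3.3: neqc (normexp background from the detection p-values, offset 16, quantile normalization, log2), within each tissue for sex and class and over all 96 arrays for comparisons of the tissues. The offset compresses differences near background. Linear models (lmFit, then eBayes with a trend) covered 11718 probes for both tissues, 10217 for fat and 8504 for liver, with sex, haplotype class and scanning day as terms. For fat minus liver, day, which is nested in tissue, was left out. A class difference is the span between the highest and lowest fitted class. Of the probes, 29534 had 1 gene symbol, 11 several and 16571 none. Permutation tests used 100000 resamples and were two-sided. For sex, labels were exchanged within class on values freed of class and day. Single mice were exchanged, although the mice of a class on a given day were all of 1 sex.

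The same mouse number marks both tissues of an animal in the labels. The deviations of the 48 pairs correlated at a median of 0.084 (-0.136 to 0.286), against -0.0022 for other mice, and 20 pairs were over 0.1. The best match had the same mouse number for 3 of the 48, so the arrays bear out the pairing only weakly. The statistics were tested on simulated data. For the linear models these held independent noise, with no differences between scanning days or mice, so such differences were not covered. Of the calls there, 2.33% (class in fat) to 7.41% (sex by tissue) fell on probes left unchanged. The named genes were the 3 immunoproteasome genes, Psme1, Psme2, the 3 constitutive partners, the 5 smallest p per direction and comparison, the chromosome 2 members by class, and up to 4 called genes of each companion list; others were singled out after their values were seen. Members and lists were chosen with earlier results of these data known. The number of arrays limits the precision. Leaving out 3 fat arrays that correlated least with the others, 33 members were called for tissue, 9 for sex in fat and 7 for sex by tissue, as with them. Promoter sequences are from RefSeq (GRCm38.p6), matched by symbol.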

Additional observations from a re-analysis of the deposited data

Results flagged for a closer look

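For 7 of 40 members the female minus male difference differed between fat and liver by the interaction term of the limma fit over 96 arrays. That call is what singled them out. Their share of 17.5% is below the 27.7% of all probes that were called. The interaction, fat minus liver, was 0.43 for Psmd2, 0.34 for Psmc5, 0.29 for Psmg2, 0.28 for Psmc4, 0.26 for Psme3, 0.24 for Psmd13 and -0.21 for Psmd3 (adjusted p from 2.34e-05 to 0.029). Psmd2 differed by 0.080 in fat and by -0.39 in liver, Psmc4 by -0.040 and -0.36, Psmd13 by 0.048 and -0.22, and Psme3 by 0.033 and -0.22. Psmg2 (0.18 and -0.11) passed in each tissue with opposite sign, as did the brightest probe of Psmc5 (0.15 and -0.20). The other Psmc5 probe gave -0.090 and -0.15 with an interaction of 0.058 (adjusted p = 0.608 by limma). Of 14 other probes of the members, 0 were called for the interaction together with the brightest probe. A dimmer Psmb8 probe was called without it, at -0.33 (adjusted p = 0.0218 by limma), where the brightest gave -0.088 (0.762). Psmd3 was lower in female fat (-0.13) and gave 0.070 in liver, which did not pass.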

How the results depend on the processing

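The count of members called for fat minus liver stayed between 27 (day as a random block) and 41 (counting every probe) over the alternatives. The deposited matrix called 35 and moved the median of all probes from 0.040 to -0.073 and the share of calls higher in fat from 55.2% to 41.3%; Psme2 reversed there, to 0.056. With mouse as a replicate block, the paired fit called 33 members for tissue and 7 for sex by tissue, the counts without it, and changed the call of 0 of the 35 results it was run on. The 9 members called for sex in fat became 4 with no detection filter, 14 counting every probe, and 2, 5 and 3 without scanning days 3, 4 and 8; the 16 in liver became 9 with no filter and 7 and 9 without days 5 and 6. Fewer arrays or more probes to adjust over enter these fits. Sex by class in liver gave 1 member with no scanning day in the model, and class gave 0 under each alternative run. Among the pair contrasts, Psmb9 over Psmb6 by sex fell below the threshold in liver without day 1 (0.31) or day 2 (0.30) and in fat without day 3 (0.26), and Psmb8 over Psmb5 in liver passed without day 5 (0.42). The correlation of Psme1 between tissues was 0.288 in the deposited matrix and 0.247 without the highest mouse, and passed in neither; those of Psmb8, Psmb9 and Psmb10 passed under each alternative. The cause of these changes was not tested. Signal over background limits what can be said of the 8 genes never tested.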

Other observations

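Psmd12, a 19S subunit on chromosome 11, shared the scanning-day pattern of Psmd14 in liver. Its signal was 6.79 to 7.88 on day 1 (median 7.47, 12 arrays) and had medians of 6.41, 6.53 and 6.59 on days 2, 5 and 6, where the highest array reached 6.87. Psme3 split the liver days differently, with medians of 6.78 and 6.87 on days 1 and 2 and of 7.41 and 7.53 on days 5 and 6, and no overlap between the 2 pairs of days. These genes were singled out after their values were seen.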
